A study of Mus musculus with 8 samples.

Results

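Voltage-gated sodium, calcium and HCN channel genes were described in mouse retina after an adeno-associated virus carrying a hairpin against connexin 36. The members are the rows of the all-samples FPKM table whose symbol names a sodium channel alpha or beta subunit (Scn), a calcium channel alpha1, alpha2delta or beta subunit (Cacna1, Cacna2d, Cacnb) or an HCN channel, with Cacna1f and Cacnb2 left out. The rule takes 33 of the 24860 genes in the table, and 30 are described. Of these, 26 had a mean of at least 1 FPKM over the 8 libraries and entered the test, and 4 did not. FPKM is a fragment count scaled by transcript length and by library size, so levels of different genes can be set side by side.

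RNA sequencing was done on 4 libraries labelled AAV2-shCX36, for the hairpin against connexin 36, and on 4 labelled AAV2-scramble, for the control hairpin. All libraries share the AAV2 vector, the retina as tissue and retinal ganglion cells as the stated cell type. The labels name different mice in general but not which mice gave which library, and the p-values therefore reflect only how these libraries vary. Age, sex, injury, time after injection and the promoter of the hairpin are unstated.

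Sodium channels open on depolarization and carry the rising phase of the action potential, with the alpha subunit forming the pore and beta subunits setting gating and surface level. Calcium channels couple voltage to transmitter release and to firing pattern. Their alpha1 subunit forms the pore, while alpha2delta and beta subunits take it to the membrane. HCN channels open on hyperpolarization and are gated by cyclic nucleotides. In the retina, ganglion cells fire sodium spikes down the optic nerve, whereas photoreceptors and bipolar cells signal mainly by graded voltage and release glutamate at ribbon synapses through L-type calcium channels.

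FPKM summed to between 282721 and 294055 per library, and the spacing of low values placed the depth at about 35600000 to 38900000 counted fragments. Gjd2, the gene of connexin 36, had 17.0, 14, 14.6 and 16.6 FPKM in AAV2-shCX36 libraries 1 to 4, against 38.7, 35.9, 17.4 and 18.2 FPKM in AAV2-scramble libraries 1 to 4 (log2 difference -0.70, exact two-sided permutation p = 0.0286, the smallest that 4 against 4 allows; limma adjusted p = 0.148). The groups did not overlap, but AAV2-scramble 3 and 4 lay just above AAV2-shCX36. The difference was -0.19 with AAV2-scramble 1 and 2 left out and -1.21 with AAV2-scramble 3 and 4 left out, and with any single AAV2-shCX36 library left out the exact permutation p was 0.114 to 0.143. All 10 ganglion cell markers were present, with summed levels of 2537 to 2734 FPKM in AAV2-shCX36 and 1539 to 2703 FPKM in AAV2-scramble. Of these markers Nefh alone averaged lower in AAV2-shCX36, at 44.0 FPKM against 75.1 FPKM (log2 difference -0.69, limma adjusted p = 0.1235). The 10 rod markers summed to 900.1 to 1200 FPKM in AAV2-shCX36 and 1491 to 2140 FPKM in AAV2-scramble, and the 8 cone markers to 1667 to 2573 FPKM and 2907 to 4407 FPKM, so photoreceptor RNA was present beside the stated cell type. AAV2-scramble 1 and 2 stood apart in several marker lists. Their 8 bipolar markers summed to 414.4 and 411.2 FPKM, against 91.9 to 207.6 FPKM elsewhere, and their 8 oligodendrocyte markers to 57.3 and 183.1 FPKM, against 10.7 to 12.1 FPKM elsewhere. Their 7 microglia markers summed to 698.7 and 665.9 FPKM, against 155.0 to 342.0 FPKM elsewhere. AAV2-shCX36 1 and 4 stood apart in the 6 lens markers, which summed to 148.8 and 322.7 FPKM there, against 0.153 to 20.8 FPKM in the other 6 libraries. Fewer cells of a type and less RNA per cell cannot be told apart in such bulk libraries.

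None of the 26 tested members passed an adjusted p under 0.05 in limma, where 4.76% of the 12858 tested genes did, 2.24% higher and 2.52% lower. At an unadjusted p under 0.05, 10 members were higher and 1 lower in AAV2-shCX36, or 38.5% and 3.85% of the members, against 12.3% and 10.3% of all genes, which is 22.6% of all genes in either direction. The median log2 difference was 0.18 over the tested members and 0.01 over all tested genes. Of the members, 21 had a positive and 5 a negative difference, which is 80.8% positive against 52.4% of all genes. The groups did not overlap, with AAV2-shCX36 above, in 3 members, namely Scn2b, Cacna1b and Cacnb1, or 11.5%, against 8.85% of all genes. No tested member's groups separated with AAV2-shCX36 below, against 7.05% of all genes. The members were chosen with earlier results of these libraries known, so these shares are descriptions.

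**Figure D1:**
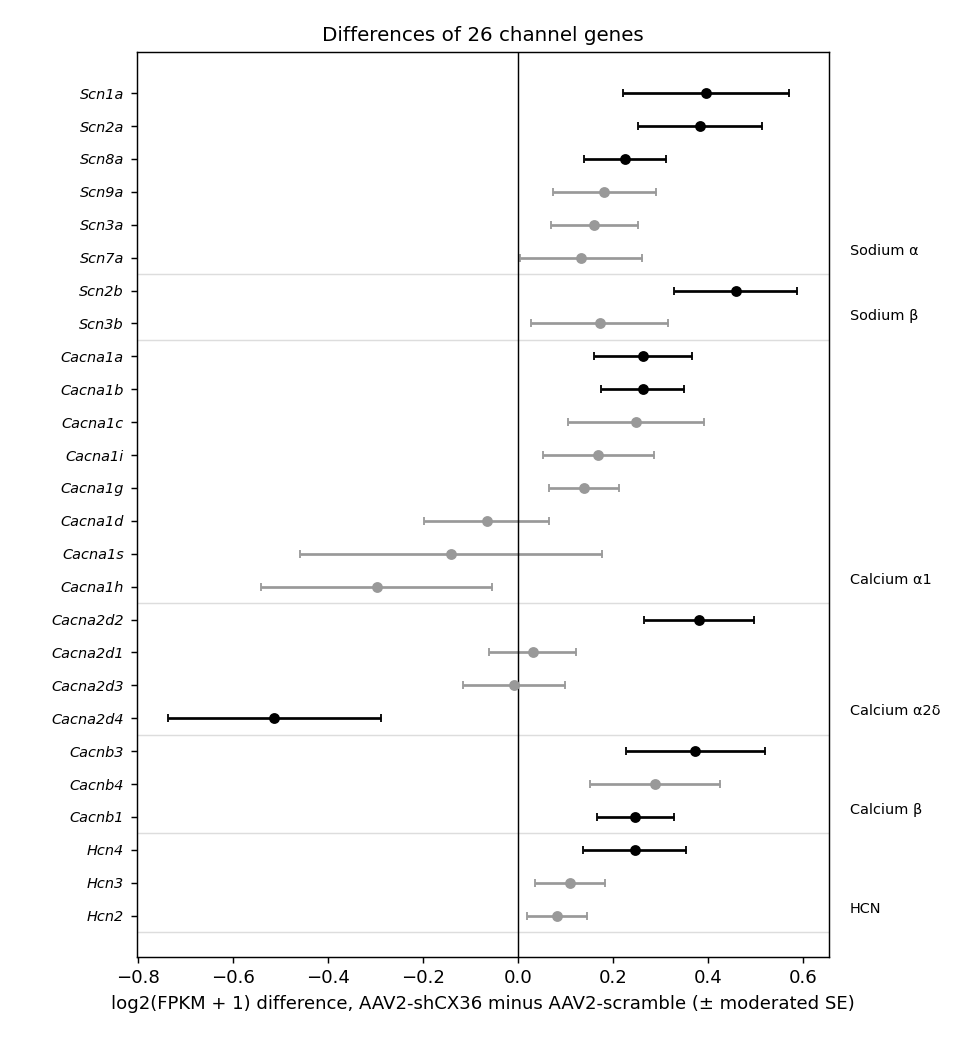
Difference in log2(FPKM + 1), AAV2-shCX36 minus AAV2-scramble, for the 26 tested members by class, with the moderated standard error as bars (n = 4 libraries each). Black points have an unadjusted p under 0.05 and none passes after adjustment, and differences run between -0.51 for Cacna2d4 and 0.46 for Scn2b.

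The sodium channel alpha subunits had positive differences in 6 of 6 tested members, with a median of 0.20 on the log2 scale. Scn1a, a pore subunit of spiking neurons and an epilepsy gene in humans, was the most abundant. It had 43.7, 48.0, 45.3 and 39.3 FPKM in AAV2-shCX36 libraries 1 to 4, against 31.7, 22.5, 41.3 and 41.0 FPKM in AAV2-scramble libraries 1 to 4. The low values were those of AAV2-scramble 1 and 2, while AAV2-scramble 3 and 4 lay within the range of the AAV2-shCX36 libraries, so the groups overlapped (log2 difference 0.40 ± 0.17 SE, limma adjusted p = 0.219). Scn2a, a pore subunit of unmyelinated axons and initial segments, had 30.9, 35.7, 35.3 and 28.3 FPKM against 23.2, 19.4, 28.5 and 28.8 FPKM in AAV2-scramble. Its lowest AAV2-shCX36 library fell inside the AAV2-scramble range (log2 difference 0.38 ± 0.13 SE, limma adjusted p = 0.135).

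Scn8a, the main pore subunit of the mature axon initial segment, had 19.1, 21.3, 20.2 and 17.6 FPKM in AAV2-shCX36 and 16, 14.7, 18.7 and 17.0 FPKM in AAV2-scramble. Both groups reached into each other by one library (log2 difference 0.23 ± 0.09 SE, limma adjusted p = 0.165). The remaining tested alpha subunits were low. Scn3a, prominent in the embryonic brain, averaged 4.40 ± 0.405 FPKM in AAV2-shCX36 and 3.83 ± 0.365 FPKM in AAV2-scramble (SD, n = 4 each; log2 difference 0.16 ± 0.09 SE, limma adjusted p = 0.327). Scn7a, which encodes an atypical sodium-sensing channel of glia, averaged 3.30 ± 0.303 FPKM and 2.96 ± 0.696 FPKM (log2 difference 0.13 ± 0.13 SE, limma adjusted p = 0.575). Scn9a, best known from pain-sensing neurons, averaged 1.54 ± 0.231 FPKM and 1.24 ± 0.139 FPKM (log2 difference 0.18 ± 0.11 SE, limma adjusted p = 0.351).

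Within every library the order Scn1a, Scn2a, Scn8a, then the low members was kept, and Scn1a took 40.8% to 42.4% of the FPKM summed over the 8 alpha subunits described in AAV2-shCX36 and 34.0% to 42.7% in AAV2-scramble. The lowest share belonged to AAV2-scramble 2. Over the 8 libraries Scn2a held a steadier share, 30.0% to 31.8% in AAV2-shCX36 and 29.1% to 30.0% in AAV2-scramble. The groups barely separated, at no less than 29.96% and no more than 29.95%. Within AAV2-shCX36 the Scn2a share varied more than that of Scn1a (SD 0.836 against 0.663). Set against each other as neighbours in this order, Scn3a at 3.40 to 4.26 FPKM and Scn7a at 2.32 to 3.95 FPKM overlapped among the AAV2-scramble libraries. Scn3a, Scn2a, Scn1a, Scn9a and Scn7a lie together on chromosome 2 (GRCm38, 65457118 to 66784914), a stretch of 1.33 Mb, and all 5 had positive differences, 0.16, 0.38, 0.40, 0.18 and 0.13 on the log2 scale. Scn9a shares exonic bases with the antisense gene Gm13629, and whether the counting used strand is unstated, so such a pair cannot be told apart.

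A sodium channel beta subunit had the largest positive difference of the 26 tested members. Scn2b, an immunoglobulin-fold subunit bound to the pore by a disulfide bridge (GRCm38 chromosome 9, 45117782 to 45130070, plus strand), had 63.7, 73.5, 65.5 and 61.2 FPKM in AAV2-shCX36 libraries 1 to 4, against 45.7, 36.8, 52.8 and 58.0 FPKM in AAV2-scramble libraries 1 to 4. Every AAV2-shCX36 library lay above every AAV2-scramble library, and AAV2-scramble 4 came closest (log2 difference 0.46 ± 0.13 SE, limma adjusted p = 0.0817, the lowest of the members).

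Scn3b, a non-covalently bound beta subunit, averaged 30.3 ± 3.12 FPKM in AAV2-shCX36 and 27.2 ± 5.75 FPKM in AAV2-scramble (SD, n = 4 each; log2 difference 0.17 ± 0.14 SE, limma adjusted p = 0.512). Scn3b made up 29.2% to 32.5% of the FPKM summed over Scn2b, Scn3b and Scn4b in AAV2-shCX36 and 35.0% to 37.2% in AAV2-scramble, without overlap. Scn2b made up nearly all the rest, at 66.8% to 69.8% and 62.4% to 64.5%, so the Scn3b share restates the Scn2b difference. The FPKM of Scn3b itself overlapped, at 27.4 to 34.7 FPKM in AAV2-shCX36 and 20.2 to 32.3 FPKM in AAV2-scramble. The beta subunit sum was 91.7 to 109.4 FPKM in AAV2-shCX36 and 57.4 to 91.0 FPKM in AAV2-scramble. The alpha subunit sum was 94.3 to 115.6 FPKM in AAV2-shCX36 and 66.2 to 97.7 FPKM in AAV2-scramble. Both sums were lowest in AAV2-scramble 2 and next lowest in AAV2-scramble 1.

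**Figure D2:**
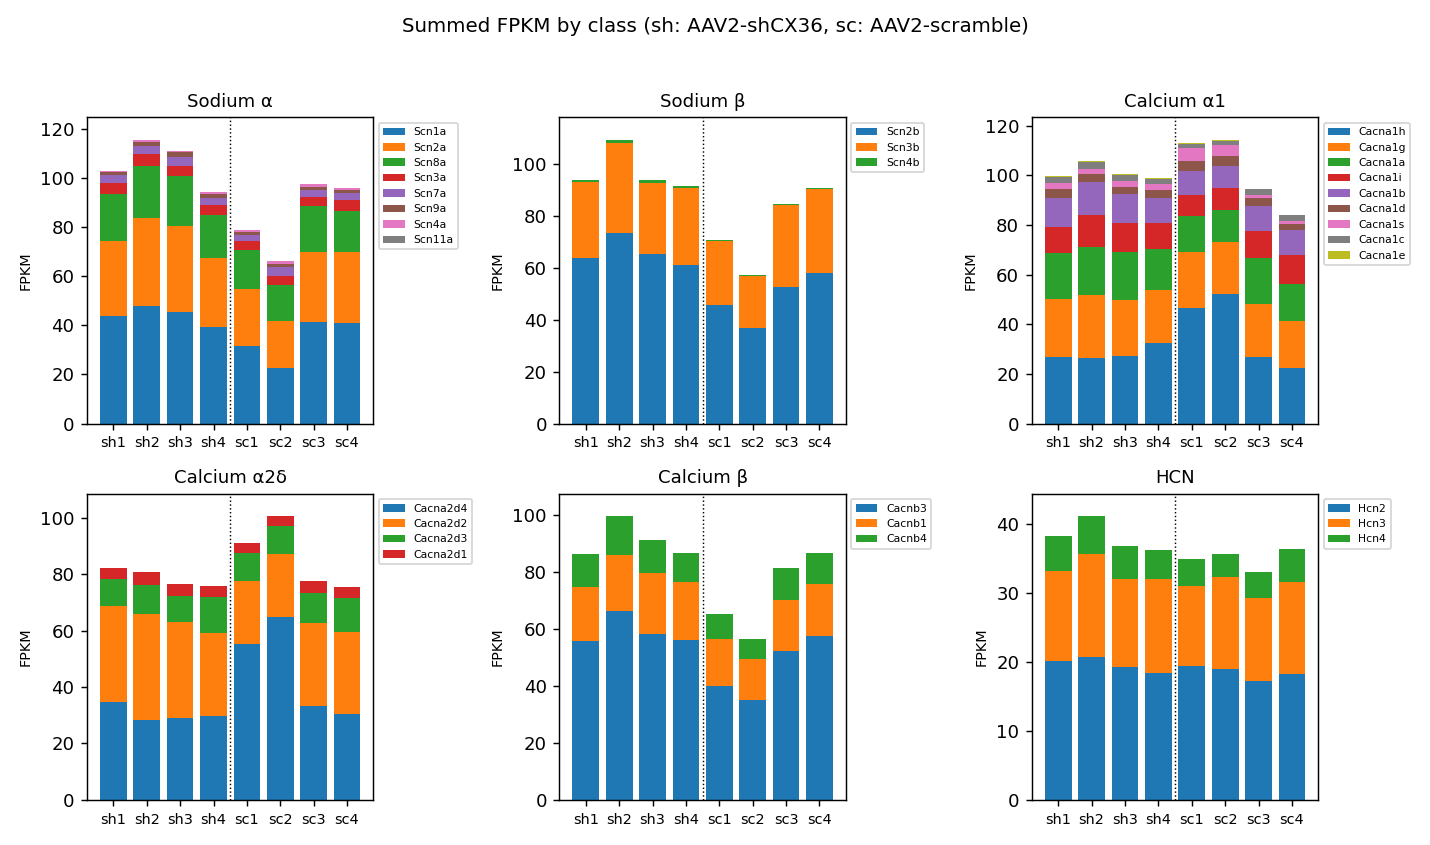
Summed FPKM of the genes described in each channel class, stacked by gene, in AAV2-shCX36 libraries 1 to 4 (sh1 to sh4) and AAV2-scramble libraries 1 to 4 (sc1 to sc4). The sodium subunit and calcium beta stacks are lowest in AAV2-scramble 1 and 2, the calcium alpha2delta stacks are highest there, and the HCN stacks lie between 33.1 and 41.1 FPKM.

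The calcium channel alpha1 subunits had 5 positive and 3 negative differences among 8 tested members. Cacna1a, the P/Q-type pore of fast transmitter release, had 18.7, 19.3, 19.0 and 16.4 FPKM in AAV2-shCX36 and 14.7, 13.0, 18.5 and 14.6 FPKM in AAV2-scramble. Only AAV2-scramble 3 reached the AAV2-shCX36 range (log2 difference 0.26 ± 0.10 SE, limma adjusted p = 0.174). Cacna1b, the N-type pore of presynaptic terminals (GRCm38 chromosome 2, 24603887 to 24763152, minus strand), had 11.8, 13.3, 11.4 and 10.3 FPKM in AAV2-shCX36 and 9.53, 8.57, 10.2 and 9.95 FPKM in AAV2-scramble. Its groups did not overlap, though AAV2-shCX36 4 and AAV2-scramble 3 nearly met (log2 difference 0.26 ± 0.09 SE, limma adjusted p = 0.128). Exons of Cacna1a overlap those of the antisense gene Gm16183.

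T-type pores open at low voltage and support burst firing and graded signals. Cacna1h, one of them, was the most abundant of the calcium channel pores described, among which Cacna1f was not counted. It had 26.9, 26.3, 27.0 and 32.6 FPKM in AAV2-shCX36, against 46.4, 52.0, 26.7 and 22.5 FPKM in AAV2-scramble. AAV2-scramble 1 and 2 were high and AAV2-scramble 4 was the lowest of all 8 libraries (log2 difference -0.30 ± 0.24 SE, limma adjusted p = 0.501). The difference was 0.19 with AAV2-scramble 1 and 2 left out and -0.78 with AAV2-scramble 3 and 4 left out (limma adjusted p = 0.301 and 0.00223). These pairs were chosen with earlier results known, so p-values without a pair, here and for other members below, are no separate support. Cacna1g averaged 23.2 ± 1.66 FPKM in AAV2-shCX36 and 21.0 ± 1.53 FPKM in AAV2-scramble, and Cacna1i 11.4 ± 1.26 FPKM and 10.1 ± 1.63 FPKM (SD, n = 4 each; log2 differences 0.14 ± 0.07 and 0.17 ± 0.12 SE, limma adjusted p = 0.298 and 0.424). Cacna1h held 40.8% to 50.7% of T-type FPKM in AAV2-shCX36, and 59.9%, 63.4%, 45.2% and 42.3% in AAV2-scramble libraries 1 to 4. Part of its exons overlap the tryptase gene Tpsg1 on the opposite strand.

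The L-type pores described were low, and Cacna1f, also an L-type pore, was left out by the rule and is not among them. Cacna1d, an L-type pore of neurons and hair cells, averaged 3.18 ± 0.205 FPKM in AAV2-shCX36 and 3.43 ± 0.796 FPKM in AAV2-scramble (SD, n = 4 each; log2 difference -0.07 ± 0.13 SE, limma adjusted p = 0.805). Cacna1c, the cardiac and neuronal L-type pore, averaged 2.47 ± 0.521 FPKM and 1.92 ± 0.406 FPKM (log2 difference 0.25 ± 0.14 SE, limma adjusted p = 0.334). Cacna1s, known as the L-type pore of skeletal muscle, averaged 2.39 ± 0.358 FPKM in AAV2-shCX36 and 3.10 ± 1.99 FPKM in AAV2-scramble (log2 difference -0.14 ± 0.32 SE, limma adjusted p = 0.830). Its AAV2-scramble values were split, at 5.02 and 4.63 FPKM in libraries 1 and 2 and 1.41 and 1.35 FPKM in libraries 3 and 4, on both sides of the 2.02 to 2.76 FPKM of AAV2-shCX36. Its difference was 0.50 with AAV2-scramble 1 and 2 left out and -0.79 with AAV2-scramble 3 and 4 left out (limma adjusted p = 0.0555 and 0.00475). The 5 muscle markers summed to 0.61 to 1.06 FPKM in AAV2-shCX36 and 0.339 to 1.02 FPKM in AAV2-scramble, with none tested and none at 0 in every library. Exons of Cacna1s overlap the antisense gene Gm37759, and those of Cacna1d overlap Chdh on the opposite strand.

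The alpha2delta subunits, extracellular proteins that carry the pore to the membrane, held the largest difference in each direction among the calcium channel genes tested here. Cacna2d4, the subunit of photoreceptor and bipolar cell synapses (GRCm38 chromosome 6, 119236526 to 119352407, plus strand), had 34.8, 28.2, 28.9 and 29.9 FPKM in AAV2-shCX36 libraries 1 to 4, against 55.2, 64.9, 33.2 and 30.6 FPKM in AAV2-scramble libraries 1 to 4. The high values were those of AAV2-scramble 1 and 2, and the groups overlapped (log2 difference -0.51 ± 0.22 SE, limma adjusted p = 0.216). The difference was -0.07 with AAV2-scramble 1 and 2 left out and -0.96 with AAV2-scramble 3 and 4 left out (limma adjusted p = 0.687 and 0.00148). Cacna2d2, an alpha2delta subunit of fast-firing neurons, had 34.0, 37.8, 34.3 and 29.3 FPKM against 22.4, 22.4, 29.7 and 29.0 FPKM in AAV2-scramble. It ran the other way, with AAV2-scramble 1 and 2 low (log2 difference 0.38 ± 0.12 SE, limma adjusted p = 0.10), and its exons overlap the antisense gene Gm17141.

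The leading alpha2delta gene was not the same in every library. Cacna2d4 made up 35.0% to 42.4% of alpha2delta FPKM in AAV2-shCX36, and 60.5%, 64.6%, 42.7% and 40.4% in AAV2-scramble libraries 1 to 4. Cacna2d2 made up 38.6% to 46.8% in AAV2-shCX36, and 24.5%, 22.2%, 38.2% and 38.3% in AAV2-scramble. Cacna2d3, a subunit of hearing and pain circuits, averaged 10.5 ± 1.65 FPKM in AAV2-shCX36 and 10.5 ± 1.01 FPKM in AAV2-scramble, and Cacna2d1, the main target of gabapentin, 4.00 ± 0.229 FPKM and 3.90 ± 0.463 FPKM (SD, n = 4 each; log2 differences -0.01 ± 0.11 and 0.03 ± 0.09 SE, limma adjusted p = 0.972 and 0.874).

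The calcium channel beta subunits are cytoplasmic partners that mask retention signals of the pore, and Cacnb2 was left out by the rule. Those described had positive differences in 3 of 3 members, with a median of 0.29. Cacnb3, the most abundant of those described, had 55.9, 66.3, 58.2 and 56.1 FPKM in AAV2-shCX36 and 39.8, 35.0, 52.2 and 57.7 FPKM in AAV2-scramble. AAV2-scramble 1 and 2 were the low libraries, and AAV2-scramble 4 lay inside the AAV2-shCX36 range (log2 difference 0.37 ± 0.15 SE, limma adjusted p = 0.178). Cacnb1, best known from skeletal muscle (GRCm38 chromosome 11, 98001508 to 98023034, minus strand), had 19.0, 19.7, 21.4 and 20.3 FPKM in AAV2-shCX36 and 16.7, 14.4, 18.1 and 18.2 FPKM in AAV2-scramble. Its groups did not overlap (log2 difference 0.25 ± 0.08 SE, limma adjusted p = 0.119), and its exons overlap Gm11629 on the opposite strand. Cacnb4, whose loss causes the lethargic phenotype in mice, averaged 11.7 ± 1.40 FPKM and 9.45 ± 1.88 FPKM (SD, n = 4 each; log2 difference 0.29 ± 0.14 SE, limma adjusted p = 0.253), with exons shared with A430018G15Rik on the opposite strand.

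The HCN genes described had positive differences in 3 of 3 members, with a median of 0.11 on the log2 scale. Hcn4, the slow-gating pacemaker channel of the heart, had 5.18, 5.45, 4.80 and 4.11 FPKM in AAV2-shCX36 and 3.93, 3.38, 3.85 and 4.69 FPKM in AAV2-scramble (log2 difference 0.25 ± 0.11 SE, limma adjusted p = 0.219).

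Hcn2, the most abundant HCN gene described, had 20.1, 20.8, 19.3 and 18.4 FPKM in AAV2-shCX36 and 19.5, 19.0, 17.3 and 18.3 FPKM in AAV2-scramble, with wide overlap (log2 difference 0.08 ± 0.06 SE, limma adjusted p = 0.471). Hcn3 averaged 13.6 ± 0.916 FPKM and 12.5 ± 0.936 FPKM (SD, n = 4 each; log2 difference 0.11 ± 0.07 SE, limma adjusted p = 0.409), and its exons overlap Pklr on the opposite strand. Of the FPKM summed over Hcn2, Hcn3 and Hcn4, Hcn2 made up 50.6% to 52.4% in AAV2-shCX36 and 50.4% to 55.7% in AAV2-scramble. Hcn4 made up 11.4% to 13.5% in AAV2-shCX36 and 9.47% to 12.9% in AAV2-scramble, so both shares overlapped.

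**Figure D3:**
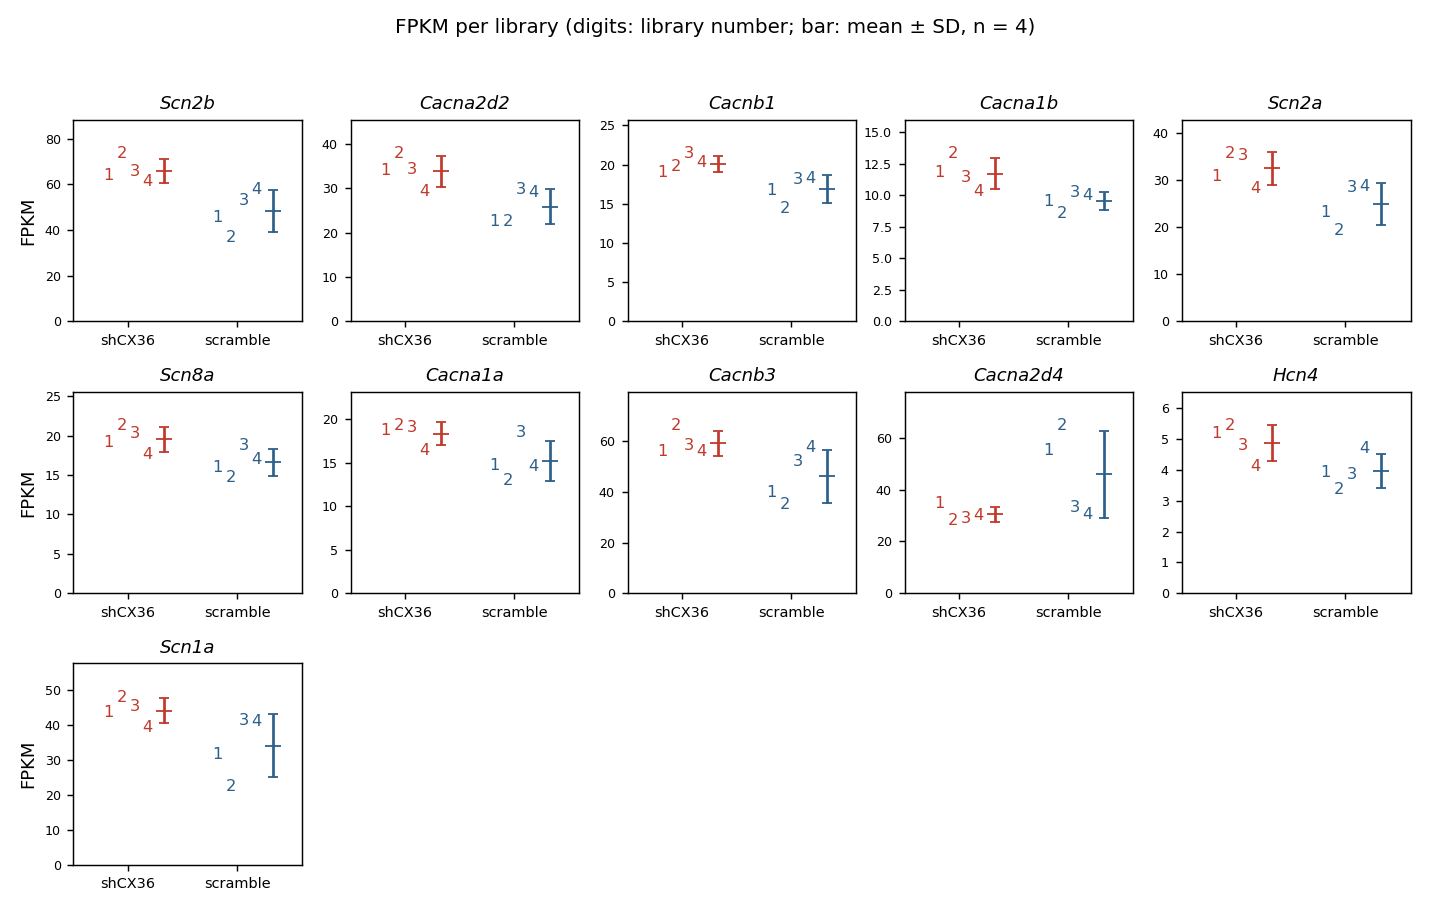
FPKM in each library for the 11 members with an unadjusted p under 0.05, AAV2-shCX36 left and AAV2-scramble right in each panel. Digits are library numbers and bars are the mean ± SD (n = 4). AAV2-scramble 1 and 2 sit lowest in most panels and highest for Cacna2d4, and the groups separate in Scn2b, Cacnb1 and Cacna1b.

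Of the 4 members under 1 FPKM, Scn4a, the skeletal muscle pore, came closest to the threshold at a mean of 0.815 FPKM, while Scn9a, at 1.39 FPKM, was the lowest member above it. Scn4a had 0.464, 0.722, 0.488 and 0.703 FPKM in AAV2-shCX36 and 0.851, 1.23, 1.13 and 0.936 FPKM in AAV2-scramble, without overlap. Of the 4 low members only 1 separated so. Scn4a was not tested, and the share of all genes under 1 FPKM that separate was not counted. Scn4b, a beta subunit of fast-spiking neurons that lies 8.3 kb beyond Scn2b on chromosome 9, ranged over 0.660 to 1.14 FPKM and 0.377 to 0.745 FPKM. Cacna1e, the R-type pore, ranged over 0.296 to 0.378 FPKM and 0.115 to 0.380 FPKM. Scn11a, a pore of pain-sensing neurons, reached at most 0.0486 FPKM in AAV2-shCX36 and 0.071 FPKM in AAV2-scramble, and was listed at 0 in 3 of the 8 libraries.

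Library order set the members into recognizable sets. In 14 of the 26 tested members AAV2-scramble 1 and 2 were the 2 lowest of the 8 libraries, or 53.8%, against 14.7% of all tested genes. Among the tested members these comprised 5 of 6 sodium alpha subunits, 2 of 2 sodium beta subunits, 3 of 3 calcium beta subunits, Cacna1b, Cacna1c, Cacna1i and Cacna2d2. In 4 members, Cacna1d, Cacna1h, Cacna1s and Cacna2d4, the same libraries were the 2 highest, or 15.4%, against 19.6% of all tested genes. Ganglion cell markers summed to 1992 and 1539 FPKM in AAV2-scramble 1 and 2 and to 2392 and 2703 FPKM in AAV2-scramble 3 and 4. The bipolar sums were 414.4 and 411.2 FPKM against 91.9 and 133.3 FPKM. Of the bipolar markers only Prkca was not raised there, at 7.4 and 9.35 FPKM against 9.33 and 11.9 FPKM. The oligodendrocyte sums were 57.3 and 183.1 FPKM against 11.5 and 11.6 FPKM, and the microglia sums 698.7 and 665.9 FPKM against 342.0 and 155.0 FPKM. No ganglion, bipolar or oligodendrocyte marker passed the threshold in limma, and 1 microglia marker was lower. The part of these lists in the channel differences was not tested.

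The count of calls depended on which AAV2-scramble libraries were kept. The pairs left out were chosen with earlier results known, so calls without a pair restate the library order above and are no separate support. Without AAV2-scramble 1 and 2, no member passed in limma, against 7.33% of all genes, and 3 of 26 had an unadjusted p under 0.05, against 24.8% of all genes. The median difference was then 0.13 over the members and 0.04 over all genes, and Scn2b had a difference of 0.25 (limma adjusted p = 0.107). Without AAV2-scramble 3 and 4, 12 members were higher and 3 lower past the threshold, against 26.8% of all genes in either direction, with a median of 0.33 over the members and -0.02 over all genes. The 3 lower members were Cacna1h, Cacna1s and Cacna2d4. Leaving out AAV2-scramble 4 alone let Scn2b pass, with a difference of 0.55 (limma adjusted p = 0.0316), against 9.04% of all genes. With libraries weighted by their scatter in these same data, Scn2b passed at 0.42 (limma adjusted p = 0.047), against 5.64% of all genes.

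**Figure D4:**
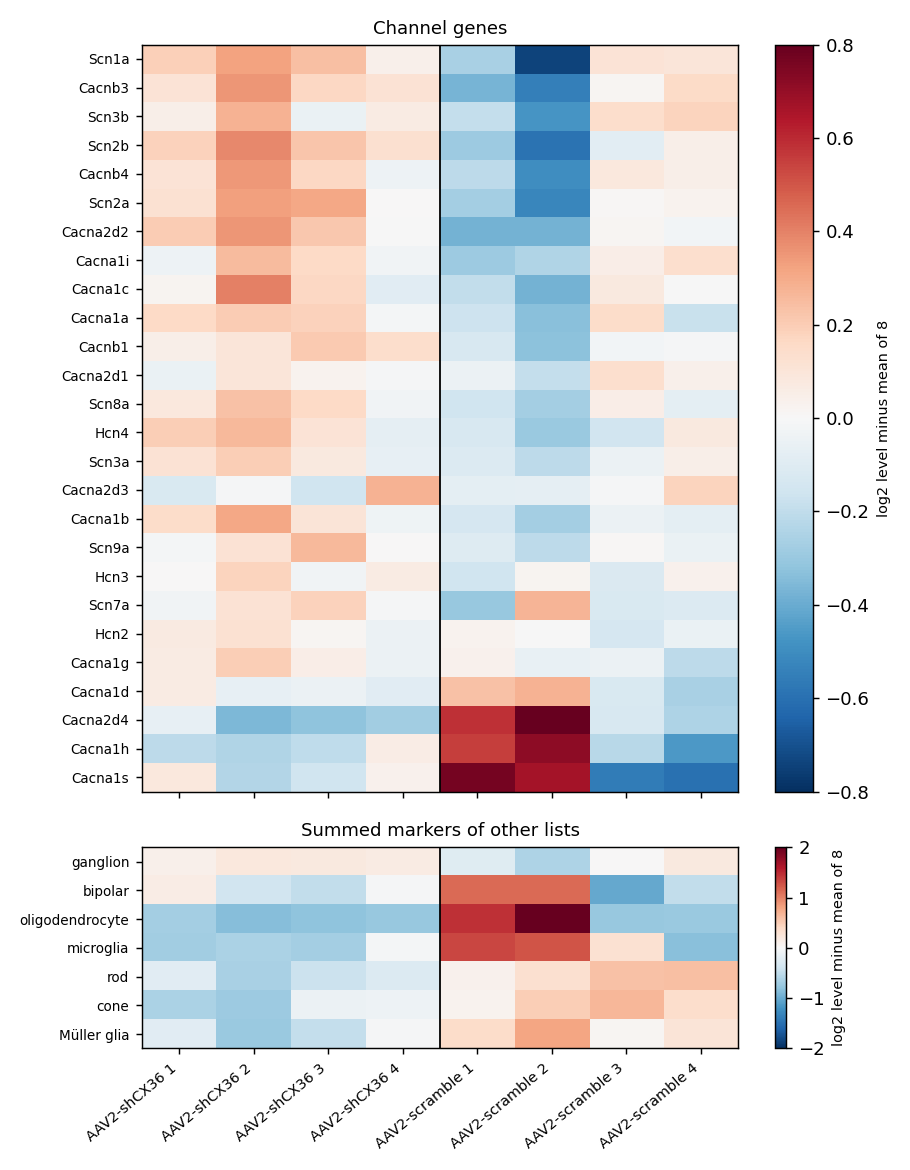
Levels of the 26 tested members (top) and summed markers (bottom) in each library, as log2(FPKM + 1) minus the mean of the 8 libraries, with genes ordered by how AAV2-scramble 1 and 2 differ from AAV2-scramble 3 and 4. Cacna1s, Cacna1h and Cacna2d4 stand high in AAV2-scramble 1 and 2, as the bipolar, oligodendrocyte and microglia lists do. Most sodium and calcium beta subunits stand low there.

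Upstream sequences are shown for 3 members that took opposite positions in AAV2-scramble 1 and 2, from the RefSeq promoter table (GRCm38.p6). Each line gives the 250 bases before a start annotated in RefSeq, 5′ to 3′ on the gene's strand. GENCODE, the source of the gene positions given above, starts these genes further upstream, so the Scn2b and Cacna1s windows run past its gene start and the Cacna2d2 window lies wholly inside its gene. Capitals mark the GC box bound by Sp1 (GGGCGG) and the core motif of the photoreceptor and bipolar factors Crx and Otx2 (TAATCC), on either strand. Scn2b and Cacna2d2 were low in these libraries and Cacna1s was high.
Scn2b, chr9:45117626-45117875, plus strand: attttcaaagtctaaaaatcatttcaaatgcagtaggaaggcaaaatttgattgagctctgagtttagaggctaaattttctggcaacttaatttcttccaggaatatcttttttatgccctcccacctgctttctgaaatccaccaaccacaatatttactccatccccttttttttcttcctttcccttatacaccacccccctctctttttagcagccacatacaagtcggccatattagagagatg
Cacna2d2, chr9:107399630-107399879, plus strand: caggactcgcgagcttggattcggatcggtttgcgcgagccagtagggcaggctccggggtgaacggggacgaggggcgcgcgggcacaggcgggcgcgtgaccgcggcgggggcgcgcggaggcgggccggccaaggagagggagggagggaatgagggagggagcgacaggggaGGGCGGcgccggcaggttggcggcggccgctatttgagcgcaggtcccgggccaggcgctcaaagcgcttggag
Cacna1s, chr1:136052561-136052810, plus strand: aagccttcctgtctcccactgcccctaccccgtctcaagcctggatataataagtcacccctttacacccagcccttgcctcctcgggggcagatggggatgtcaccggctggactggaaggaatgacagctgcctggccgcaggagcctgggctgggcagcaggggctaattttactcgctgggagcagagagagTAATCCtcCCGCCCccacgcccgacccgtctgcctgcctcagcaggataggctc
The Scn2b window held neither motif and had a GC content of 38.4%, against 74.4% for Cacna2d2, with 1 GC box, and 62.4% for Cacna1s, with 1 of each motif and no overlap between them. Of the 26 tested members, 19 matched the table, with 28 windows. Cacna1h and Cacna2d4, also high in AAV2-scramble 1 and 2, were not among them. The GC box stood in 46.4% of these windows and in 32.7% of all 32851 windows, and TAATCC in 7.14% and 6.25%. Only 2 matched members had TAATCC, so the 3 windows shown do not tie the motif to library order, which was not tested. These matches are of letters and show no binding.

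Genes that anchor, modulate or sense these channels were read from the same fit. Of 33 listed partners 31 were tested, none was higher and 2 fell past the threshold, against 2.52% of all genes lower, and the median difference was 0.09. Cabp4, a calcium-binding protein that tunes the L-type channel of photoreceptor terminals, fell to 39.5, 32.3, 48.1 and 44.2 FPKM in AAV2-shCX36, against 55.3, 69.2, 78.7 and 72.1 FPKM in AAV2-scramble (log2 difference -0.74 ± 0.14 SE, limma adjusted p = 0.0226). Kcne2, a single-pass subunit that joins potassium and HCN channels, fell to 58.0, 50.4, 82.7 and 74.0 FPKM, against 98.7, 118.6, 158.8 and 131.6 FPKM in AAV2-scramble (log2 difference -0.93 ± 0.18 SE, limma adjusted p = 0.0239). For both genes every AAV2-shCX36 library lay below every AAV2-scramble library, and AAV2-scramble 1 and 2 were the nearer ones. Neither passed without AAV2-shCX36 1, AAV2-shCX36 2 or AAV2-scramble 3, with limma adjusted p of 0.0721, 0.0573 and 0.0634 for Cabp4 and 0.0782, 0.0706 and 0.0613 for Kcne2. In limma 8 of 10 rod and 3 of 8 cone markers were lower in AAV2-shCX36 past the same threshold, and their part was not tested.

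A further 6 partners had an unadjusted p under 0.05 without passing. With Cabp4 and Kcne2, 4 of the 31 tested partners were higher and 4 lower at that threshold, or 12.9% each way, against 12.3% and 10.3% of all genes, so the shares lay near the background. Calm3, a calmodulin gene, averaged 508.3 ± 17.5 FPKM in AAV2-shCX36 and 419.3 ± 55.7 FPKM in AAV2-scramble, and Cabp1, a neuronal calcium sensor, 60.2 ± 3.21 FPKM and 50.1 ± 6.03 FPKM (SD, n = 4 each; limma adjusted p = 0.143 and 0.120). Stac2, an adaptor that binds L-type channels, averaged 59.7 ± 2.99 FPKM and 52.2 ± 3.87 FPKM, and Rimbp2, a scaffold that holds calcium channels at release sites, 7.94 ± 0.213 FPKM and 6.74 ± 0.708 FPKM (limma adjusted p = 0.137 and 0.159). On the lower side were Gem, a small GTPase that inhibits calcium channels, at 3.69 ± 0.350 FPKM and 5.31 ± 1.25 FPKM, and Unc80, a scaffold of the sodium leak channel, at 11.1 ± 0.660 FPKM and 13.8 ± 2.02 FPKM (limma adjusted p = 0.130 and 0.136). None of the 6 genes listed as sodium channel anchors passed in limma. The differences were -0.11 for Ank3, -0.07 for Ank2, 0.14 for Sptbn4, 0.13 for Nfasc, 0.10 for Nrcam and 0.24 for Cntn1 on the log2 scale, with adjusted p between 0.231 and 0.644.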

How the data were processed

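Total RNA of 8 mouse retina libraries was sequenced as 150 bp paired-end reads, per the labels' protocols. The authors deposited FPKM for 24860 gene symbols. The submitters' processing notes name fastp, HISAT2, HTSeq, R 3.2.0 and DESeq2 and the builds GRCm38 and mm10. The table holds no counts, so no count model was run, and 0 value columns were unmatched to a sample. Depth was read from low FPKM of single-exon genes, where 29.8% to 40.3% of values were whole within 0.05 of a fragment, over depths searched between 20000000 and 60000000 fragments, so it is approximate and no counting interval is given.

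Groups came from the sample titles. The test was limma 3.58.1 (R 4.3.3), lmFit and eBayes with trend. It took log2(FPKM + 1) of 12858 genes whose average over the libraries reached 1 FPKM, with Benjamini-Hochberg adjustment over all of them and a threshold of 0.05. A pseudocount of 1 understates differences of low genes. Members, lists, libraries left out and the naming rule (every member, with each library's value for those with an unadjusted p under 0.05 and the most abundant of each class; partners that passed or had an unadjusted p under 0.05; Gjd2) were chosen with earlier results of these data known. The 6 anchors and the 3 promoters were named after their values were seen. The 14 marker lists are for retinal and other cell types. The lists for horizontal and amacrine cells, Müller glia, astrocytes, microglia, endothelium, lens and pigment epithelium had 1, 0, 4, 0, 1, 0, 0 and 0 markers lower and none higher past the threshold. Positions are from GENCODE vM21 (GRCm38), matched for all 30 members described. Of the genes the rule takes, 3 are not reported here and enter no count, sum or figure of the members. On simulated libraries 12765 genes entered the test, with folds split over both groups so that changed genes stayed past the filter. Of 50 genes changed 1.5-fold 64% were recovered, and of 50 changed 2-fold 70%, with 9 unchanged genes among 169 calls. Noise was drawn for each gene alone, without the shared differences among the AAV2-scramble libraries, so the rate of false calls may differ here. The members' log2 differences were all smaller than 1.5-fold, so recovery at their size was not simulated. Tables and plots were made in Python 3.11.15 (numpy 2.4.6, pandas 2.3.3, matplotlib 3.10.9). The alternatives were other pseudocounts, scalings, filters, variance models, a block for the replicate number, weighted libraries and omitted libraries. Those for Gjd2 were added after its values were seen.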

Additional observations from a re-analysis of the deposited data

Results flagged for a closer look

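Among the 70 sets of 4 libraries examined (26 members, Gjd2 and 8 partners in each group), 2 held a library far from the others. By chance about 1 set in 20 would be flagged, so 2 of 70 is no more than chance gives. Cacna1h, a T-type calcium channel pore, had 32.6 FPKM in AAV2-shCX36 4, above the 26.3 to 27.0 FPKM of the other AAV2-shCX36 libraries. Unc80, a scaffold of the sodium leak channel, had 10.1 FPKM in AAV2-shCX36 4, below the 11.3 to 11.5 FPKM of the others. The lens markers summed to 322.7 FPKM in the same library, the highest of the 8, and their part was not tested.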

How the results depend on the processing

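The count of members past the threshold was 0 higher and 0 lower under every scaling, pseudocount, filter and variance model tried, and with the replicate number as a block. The exceptions were 1 higher with library weights, 0 to 1 higher with single libraries left out, and 12 higher and 3 lower without AAV2-scramble 3 and 4. With AAV2-scramble 1 and 2 omitted, the sign turned for Cacna1d (0.16), Cacna1h (0.19), Cacna1i (-0.0125), Cacna1s (0.50), Cacna2d1 (-0.0711) and Scn3b (-0.0746), without AAV2-scramble 3 and 4 for Cacna2d3 (0.0707), and with library weights for Cacna2d1 (-0.0021). With single libraries left out, the differences ran over -0.16 to 0.0164 for Cacna1d, -0.36 to 0.0906 for Cacna1s, -0.0268 to 0.0817 for Cacna2d1 and -0.10 to 0.0501 for Cacna2d3. The cause was not tested. Other members kept their sign in each of the 21 alternatives that tested them, and a filter of 5 FPKM left out 8.

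Partner counts were 1 higher with quantile normalization, 0 lower without a filter, 8 higher and 6 lower when AAV2-scramble 3 and 4 were omitted, 0 lower when AAV2-shCX36 1 and 4 were, and 0 to 3 higher and 0 to 2 lower with single libraries left out. Counts over all genes were 288 higher and 324 lower, 177 and 134 without a filter, 107 and 57 with the replicate number as a block, 554 and 388 with AAV2-scramble 1 and 2 left out, 1536 and 1905 with AAV2-scramble 3 and 4 left out, 76 and 30 with AAV2-shCX36 1 and 4 left out, and 101 to 573 and 70 to 589 with single libraries left out. Same-numbered libraries had correlations of 0.128, -0.302, 0.226 and -0.269 in their deviations from the group means, of both signs. So few values cannot decide whether the numbers pair the libraries, which the labels leave unstated. The Gjd2 difference was -0.70, with exact p of 0.125 as pairs in the replicate block, the smallest 4 pairs allow, -0.19, -1.21 and -0.81 when AAV2-scramble 1 and 2, AAV2-scramble 3 and 4 or AAV2-shCX36 1 and 4 were omitted (exact p = 0.133, 0.0667 and 0.133, where 0.0667 is the smallest 2 against 4 allow), and -0.88 to -0.51 with single libraries left out. With 35600000 to 38900000 fragments and 4 libraries a group, the median standard error of a member's difference was 0.12 on the log2 scale, which limits what could be called. Alternatives for Gjd2 were chosen after seeing the data.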
